A study of Homo sapiens with 4 samples.

Results

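The wide distal peaks of LM2 breast cancer cells were chosen by length and position alone, as the peaks at least 800 bp long that lay more than 10 kb from both ends of every protein-coding gene. They numbered 9844 of 190348 peaks in the deposited table. LM2 is a human line derived from MDA-MB-231 with a raised potential to form lung metastases. Chromatin accessibility was measured by ATAC-seq, in which the Tn5 transposase cuts and tags open DNA, and each count is a cut site that falls in a peak. The tested cells carried a CECR2 deletion made with guide sg1 (2 libraries), and the cells they were set against carried a non-targeting guide (2 control libraries). All 4 libraries came from 50000 cells grown as a monolayer with puromycin, and no drug or time differed between the groups. Only 1 guide was used, and the labels do not say whether the edited cells were a clone or a pool, or whether the replicates came from different cultures. The p-values therefore rest on a spread among libraries that may be technical. CECR2 carries a bromodomain and works in a complex with ISWI chromatin remodellers, and the comparison asked how its loss changes open chromatin in metastatic cells.

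Open sites far from gene ends are mostly enhancers, where transcription factors such as AP-1, RUNX, ETS and TEAD proteins displace nucleosomes and act on genes at a distance. A wide open site usually spans several displaced nucleosomes, as at active promoters, clustered enhancers and promoters of non-coding transcripts. ISWI remodellers slide nucleosomes and space them evenly. A nearest gene is given below only as a label of position and not as a target.

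The deposited peaks carry no sequence, but 778 wide distal peaks contained at least 1 whole RefSeq promoter, a stretch of 300 bases around a transcript start in build GRCh38.p14. Of the promoters in peaks lower in sg1, 38 of 126 (30.2%) held the AP-1 motif TGANTCA on either strand, a motif that reads the same on both. It was held by 22 of 305 promoters (7.21%) in peaks higher in sg1, by 59 of 555 (10.6%) in peaks that were not called, and by 7.71% of all 35116 RefSeq promoters of this length. The sequences below show promoters from peaks that changed about 2-fold or more, and were picked after their values were seen. Capitals mark the AP-1 motif in KSR1, LCT-AS1 and SYNPO and a match to the NF-kB motif in MIR3142HG. The SMAD3 and RGMA promoters, from peaks higher in sg1, hold no AP-1 motif in this window and are all in lower case, and an NF-kB match in the RGMA window is not marked. NF-kB matches were in 15.9% of promoters in lower peaks, 14.4% in higher peaks and 13.7% in peaks not called, and in 11.3% of all promoters. Matches to a TEAD motif were in 17.5% of promoters in lower peaks, 6.23% in higher peaks and 12.1% in peaks not called. The TEAD share of all promoters was 14.0%, and a TEAD match in the MIR3142HG window is not marked. A match describes letters and shows no binding. The plus-strand windows are KSR1 at chr17:27471714-27472013, LCT-AS1 at chr2:135819941-135820240, SYNPO at chr5:150640410-150640709, MIR3142HG at chr5:160468001-160468300 and SMAD3 at chr15:67098429-67098728. RGMA, at chr15:93073107-93073406, is on the minus strand.
KSR1: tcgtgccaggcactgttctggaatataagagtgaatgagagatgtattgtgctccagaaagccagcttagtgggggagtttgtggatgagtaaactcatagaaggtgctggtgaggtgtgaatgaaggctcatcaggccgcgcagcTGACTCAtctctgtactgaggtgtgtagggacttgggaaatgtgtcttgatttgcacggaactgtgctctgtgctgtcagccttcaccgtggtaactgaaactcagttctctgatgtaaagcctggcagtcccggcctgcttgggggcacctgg
LCT-AS1: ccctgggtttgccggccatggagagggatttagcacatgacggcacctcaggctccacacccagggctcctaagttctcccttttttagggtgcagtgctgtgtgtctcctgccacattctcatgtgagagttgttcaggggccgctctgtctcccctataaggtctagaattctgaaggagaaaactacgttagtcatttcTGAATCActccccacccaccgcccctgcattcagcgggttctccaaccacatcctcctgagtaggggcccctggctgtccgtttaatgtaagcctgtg
SYNPO: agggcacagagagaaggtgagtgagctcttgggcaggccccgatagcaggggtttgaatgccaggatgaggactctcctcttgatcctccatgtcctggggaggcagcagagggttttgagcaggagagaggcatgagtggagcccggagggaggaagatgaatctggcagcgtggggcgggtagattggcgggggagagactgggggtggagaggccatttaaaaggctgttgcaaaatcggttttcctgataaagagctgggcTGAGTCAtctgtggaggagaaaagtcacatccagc
MIR3142HG: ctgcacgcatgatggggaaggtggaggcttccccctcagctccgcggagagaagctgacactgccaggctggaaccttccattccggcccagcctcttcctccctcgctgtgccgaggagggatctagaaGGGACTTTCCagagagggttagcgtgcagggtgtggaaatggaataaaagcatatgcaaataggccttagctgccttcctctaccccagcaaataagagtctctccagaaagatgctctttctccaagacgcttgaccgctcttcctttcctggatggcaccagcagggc
SMAD3: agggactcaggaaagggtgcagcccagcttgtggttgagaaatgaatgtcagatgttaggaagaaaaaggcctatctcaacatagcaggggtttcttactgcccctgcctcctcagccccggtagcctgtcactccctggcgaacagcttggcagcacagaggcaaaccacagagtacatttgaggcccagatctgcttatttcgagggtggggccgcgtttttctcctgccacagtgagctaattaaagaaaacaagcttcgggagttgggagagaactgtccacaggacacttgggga
RGMA: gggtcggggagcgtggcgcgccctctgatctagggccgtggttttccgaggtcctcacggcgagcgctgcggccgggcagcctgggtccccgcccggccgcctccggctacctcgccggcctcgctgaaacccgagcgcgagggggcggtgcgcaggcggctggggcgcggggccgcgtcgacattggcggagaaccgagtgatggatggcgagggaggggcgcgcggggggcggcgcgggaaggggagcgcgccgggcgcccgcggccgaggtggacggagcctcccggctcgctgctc

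KSR1 is a scaffold of the RAF-MEK-ERK kinases. The peak around this internal KSR1 start had 186 and 96 counts in sg1 libraries, against 212 and 161 in control libraries, although the sg1 libraries were sequenced more deeply. Its level was 3.32 ± 1.25 CPM in sg1 and 10.4 ± 0.138 CPM in control (log2 fold change -1.63, SE 0.19). LCT-AS1, a long non-coding RNA (lncRNA) antisense to the lactase gene, started in a peak with 330 and 247 counts in sg1 and 358 and 282 in control (log2 fold change -1.38, SE 0.12). SYNPO encodes the actin-associated protein synaptopodin, and its peak had 1754 and 1494 counts in sg1 and 1630 and 1127 in control (log2 fold change -0.98, SE 0.06). In CPM, both sg1 libraries lay under both control libraries at each of these peaks, which were picked after their values were seen. MIR3142HG is the lncRNA that hosts miR-146a, a microRNA that restrains NF-kB signalling. Its peak, 1392 bp long, was at 34.2 ± 0.455 CPM in sg1 and 70.5 ± 2.32 CPM in control (log2 fold change -1.04, SE 0.06). SMAD3 carries TGF-beta signals to the nucleus. The peak at its internal start was at 15.5 ± 0.227 CPM in sg1 and 7.67 ± 0.873 CPM in control (log2 fold change 1.02, SE 0.12). RGMA, a guidance molecule and BMP co-receptor, had a peak at 16.4 ± 0.916 CPM in sg1 and 8.13 ± 0.608 CPM in control (log2 fold change 1.01, SE 0.12). Each of these 6 differences passed edgeR's quasi-likelihood test, with adjusted p from 2.14e-14 to 9.53e-08. Base composition moved with the AP-1 difference: promoters had a median GC content of 56.3% in lower peaks, 69.7% in higher peaks and 66.3% in peaks not called, and its part in the motif shares was not tested. Among promoters of at most 60% GC, the motif was in 32 of 78 (41.0%) from lower peaks, 10 of 56 (17.9%) from higher peaks and 43 of 179 (24.0%) from peaks not called. Above 60% GC it was in 6 of 48 (12.5%) from lower peaks, 12 of 249 (4.82%) from higher peaks and 16 of 376 (4.26%) from peaks not called.

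The wide distal peaks more often lost than gained accessibility in sg1, by small amounts. All 9844 passed the filter on low counts. At an FDR of 0.05, 2995 were lower in sg1 (30.4%, against 16.8% of all 184717 peaks tested) and 1706 were higher (17.3%, against 11.5%), so 28.3% of all tested peaks were called in either direction. DESeq2 called 2302 lower and 1001 higher, against 10.4% and 4.93% of all peaks it tested. The median log2 fold change was -0.06, with quartiles at -0.35 and 0.21, and the median over all tested peaks was 0.02. Lower calls had a median of -0.52 and higher calls a median of 0.50. Only 347 fell by more than 2-fold (3.52%, against 8.87% of all tested peaks), and 193 rose by more than 2-fold (1.96%, against 4.96%). These peaks were also taller than most, with a median of 14.1 CPM against 1.79 CPM over all tested peaks, so small changes were easier to call in them. Both sg1 libraries lay under both control libraries at 4275 peaks (43.4%, against 31.9% of all) and over both at 3043 (30.9%, against 31.8%), and 2989 lower calls and 1704 higher calls were separated in this way. Without sg1 replicate 1 or sg1 replicate 2, 1105 and 1092 were higher. CPM here is the usual library-scaled cut count, taken outside the start of chromosome 1 and scaled by TMM, and errors are SD with n = 2 libraries per group. Depth outside that start was 43519018 and 38924086 counts in sg1 and 21002477 and 15561701 in control. A wide distal peak had a median of 599 and 535 counts in sg1 libraries and 300 and 223 in control libraries.

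The lean towards loss depends on how the libraries are put on one scale. With scaling factors from gene-end peaks alone (within 1 kb of an end), the median of all tested peaks moved to -0.14 and that of the wide distal peaks to -0.22, and 4368 were lower and 895 higher. Lower calls were then 83.0% of the calls, against 63.7% with the scaling used here. With library size alone the median was -0.01, with 2669 lower and 2037 higher. As a share of each library's counts outside the start of chromosome 1, with no scaling factor, the wide distal peaks held 17.7% and 17.7% in sg1 and 18.6% and 18.6% in control. The difference of -0.918 percentage points had p = 0.333 in an exact two-sided permutation test, the smallest p that 2 against 2 libraries allow. It was -2.07 with the start of chromosome 1 kept in the totals. With the tallest member left out, a peak on mitochondrial pseudogenes described below, it was -1.23, a choice made after seeing the data. Shares of the other classes were 33.9% in sg1 and 35.5% in control for narrower distal peaks, and 23.3% in sg1 and 21.1% in control for wide gene-end peaks.

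The largest losses left a small part of the control level. The peak inside SLC41A2 (a magnesium transporter gene) on chromosome 12, from 104930361 to 104931248, had 25 and 5 counts in sg1 libraries, against 178 and 115 in control libraries. Its log2 fold change was -4.49 (SE 0.31), and it was -5.93 without sg1 replicate 1 and -3.81 without sg1 replicate 2. The peak in C1QTNF1, which encodes a secreted relative of adiponectin, had 197 and 187 counts in sg1 and 1145 and 772 in control, or 4.60 ± 0.205 CPM in sg1 and 53.0 ± 3.76 CPM in control (log2 fold change -3.53, SE 0.09). It spans chromosome 17 from 79038471 to 79039323. PAPPA encodes a protease that cleaves IGF-binding proteins, and the peak 503084 bp from it on chromosome 9 had 156 and 135 counts in sg1 and 711 and 571 in control (log2 fold change -3.36, SE 0.11). Groups that do not overlap in CPM were a condition for all peaks of this ranking, losses and gains, so that they do not overlap is no finding. The peak near ZMIZ1, a transcriptional coactivator gene, had 235 and 253 counts in sg1 and 1038 and 819 in control (log2 fold change -3.15, SE 0.09). The peak near SERPINA6, the gene of the cortisol-binding globulin of blood, had 408 and 334 counts in sg1 and 1498 and 1023 in control (log2 fold change -2.98, SE 0.08). The remaining 3 of the 8 largest losses lay near FAM181B, near OR4C12 (an olfactory receptor gene) and in ATG7 (an enzyme of autophagy), with log2 fold changes of -3.13, -2.93 and -2.90. All 8 passed edgeR's quasi-likelihood test, with adjusted p from 4.27e-24 to 1.18e-11, and kept their call in DESeq2.

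The largest gains were at sites that were low in control cells, from 0.569 to 1.86 CPM over the 7 described, and were smaller. COLGALT2 encodes a sugar transferase of collagen, and the peak inside it, on chromosome 1 from 184025004 to 184025804, had 410 and 354 counts in sg1 and 20 and 27 in control. Its level was 9.12 ± 0.204 CPM in sg1 and 1.37 ± 0.558 CPM in control (log2 fold change 2.79, SE 0.22). The peak inside KIAA1549, a gene known as the fusion partner of BRAF in some brain tumours, had 502 and 434 counts in sg1 and 25 and 33 in control (log2 fold change 2.78, SE 0.20). The sg1 libraries lay close together at both peaks, and the control libraries less so. Control levels were 0.972 and 1.76 CPM in COLGALT2 and 1.22 and 2.15 CPM in KIAA1549. Without control replicate 1 the log2 fold change was 2.37 at each, and without control replicate 2 it was 3.22 in COLGALT2 and 3.20 in KIAA1549. SCAP escorts the SREBP regulators of sterol synthesis, and its peak had 310 and 284 counts in sg1 and 36 and 22 in control (log2 fold change 2.14, SE 0.22). FFAR4, a fatty acid receptor gene, lay near a peak with 209 and 169 counts in sg1 and 21 and 13 in control (log2 fold change 2.25, SE 0.27). Another 3 were in TYW1B (2.42), near FOXD4L6 (2.35) and near LOC124900868 (2.21). TYW1B and FOXD4L6 have near-identical copies elsewhere in the genome, so the counts at their peaks could be split between copies. Adjusted p by edgeR's quasi-likelihood test ran from 1.27e-12 to 1.24e-06 over these 7 gains.

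**Figure D1:**
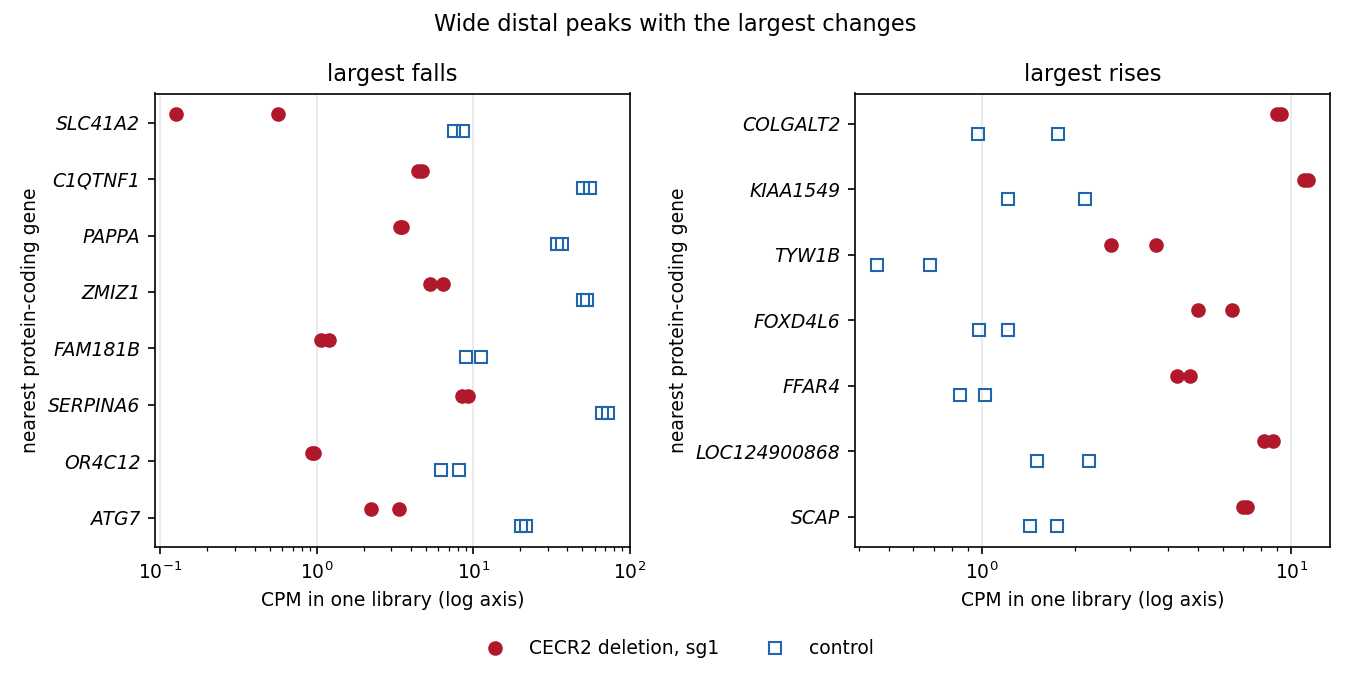
The 8 wide distal peaks with the largest falls (left) and 7 of those with the largest rises (right), by nearest protein-coding gene. The x axis is CPM on a log scale, each filled circle is an sg1 library and each open square a control library, and peaks were ranked only where the groups do not overlap. Falls reach higher control levels, up to 72.8 CPM near SERPINA6, than the rises reach in sg1, where the highest is 11.3 CPM in KIAA1549.

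Taller wide distal peaks were more often lower. Among the 684 with a mean of up to 5 CPM, 13.2% were lower and 33.2% higher, and the median log2 fold change was 0.27. From 10 to 20 CPM the shares were 28.4% lower and 16.4% higher, and from 20 to 40 CPM 40.4% lower and 13.3% higher. In the 631 peaks from 40 to 80 CPM, 61.3% were lower and 5.71% higher (median -0.27), and in the 35 above 80 CPM 71.4% were lower and 8.57% higher (median -0.34). The medians of the 4 classes above 10 CPM were below 0 with every scaling, that from 5 to 10 CPM, 0.05, turned to -0.11 with scaling on gene-end peaks, and that up to 5 CPM was above 0 with every scaling. Narrower distal peaks moved the same way up to 80 CPM, with medians of 0.00 up to 5 CPM and -0.33 from 40 to 80 CPM, while the 19 above 80 CPM had a median of 1.09. Wide gene-end peaks had medians of 0.28 and 0.00 in the same classes, and from 40 to 80 CPM 19.6% of them were lower and 16.8% higher. A change is called more easily in a taller peak, which affects the shares and not the medians.

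**Figure D2:**
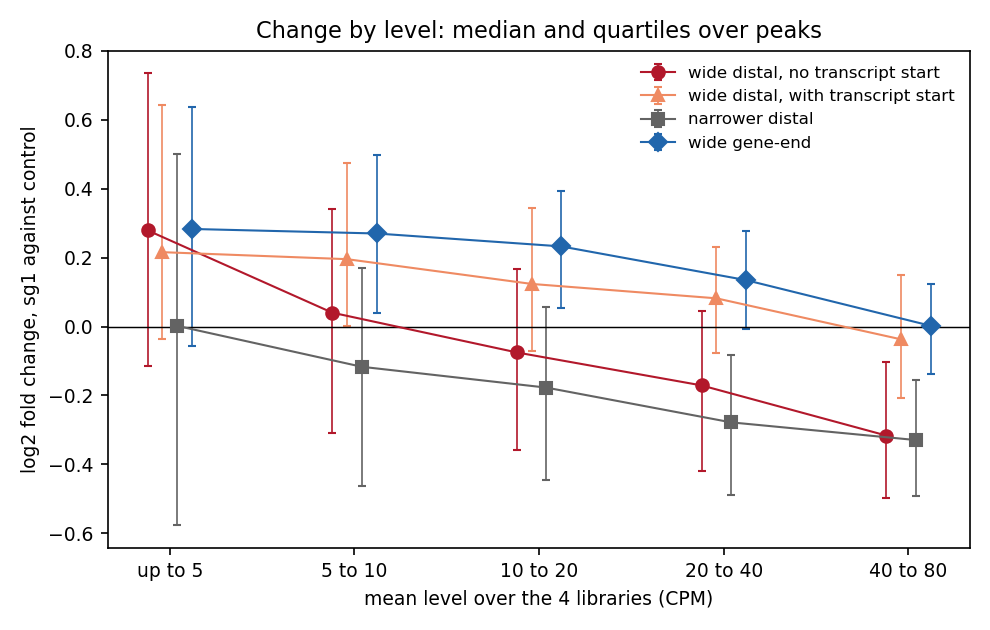
Median log2 fold change, sg1 against control, by mean level in CPM over the 4 libraries, for wide distal peaks with no and with a RefSeq transcript start, narrower distal peaks and wide gene-end peaks. Bars run from the lower to the upper quartile over peaks. Medians decline with level in all 4 classes, to -0.32 for wide distal peaks without a start and to 0.00 for wide gene-end peaks from 40 to 80 CPM.

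Distance from protein-coding genes did not keep promoters out of the class. A RefSeq transcript start lay in 887 of the wide distal peaks, and these leaned towards gain: 14.8% were lower and 29.1% higher, and the median log2 fold change was 0.10. Those with a start of a protein-coding gene, far from the outer ends of that gene, numbered 490, of which 7.96% were lower and 32.0% higher. The 397 with a start of non-coding genes alone had 23.2% lower and 25.4% higher. The 8957 without any start had 32.0% lower and 16.2% higher, and a median of -0.08. With scaling on gene-end peaks the median of the peaks with a start turned to -0.06, with 241 lower and 113 higher, and that of the peaks without a start moved to -0.24. The medians also differed at matched levels: from 20 to 40 CPM the medians were 0.08 with a start and -0.17 without, and from 40 to 80 CPM they were -0.04 with a start and -0.32 without.

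Length moved with starts. A start was present in 165 of 3906 peaks of 800 to 900 bp and in 105 of 259 of 1500 bp or more. The shortest class had 31.8% lower and 14.7% higher with a median of -0.10, while the longest had 12.7% lower and 35.1% higher with a median of 0.14, which scaling on gene-end peaks turned to -0.02. Peaks without a start showed the same order at 20 to 40 CPM, where 55.2% were lower at 800 to 900 bp, 50.9% at 900 to 1000 bp, 38.5% at 1000 to 1200 bp, 32.2% at 1200 to 1500 bp and 14.6% at 1500 bp or more. The 4 longest peaks were higher in sg1, all with adjusted p under the FDR in edgeR's quasi-likelihood test. The longest, 2321 bp near TRIML1 on chromosome 4, was at 46.3 ± 0.523 CPM in sg1 and 36.3 ± 0.125 CPM in control (log2 fold change 0.35, SE 0.07). The second longest, inside NFATC2, a transcription factor gene of calcium signalling, was at 21.9 ± 0.651 CPM in sg1 and 14.6 ± 1.20 CPM in control (log2 fold change 0.58, SE 0.10). The peak of 2145 bp inside FHDC1 had a log2 fold change of 0.58 (SE 0.09). The peak of 2137 bp inside RORA, a nuclear receptor gene, had a log2 fold change of 0.23 (SE 0.08), a call lost without each library in turn, in DESeq2 and with scaling on gene-end peaks.

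**Figure D3:**
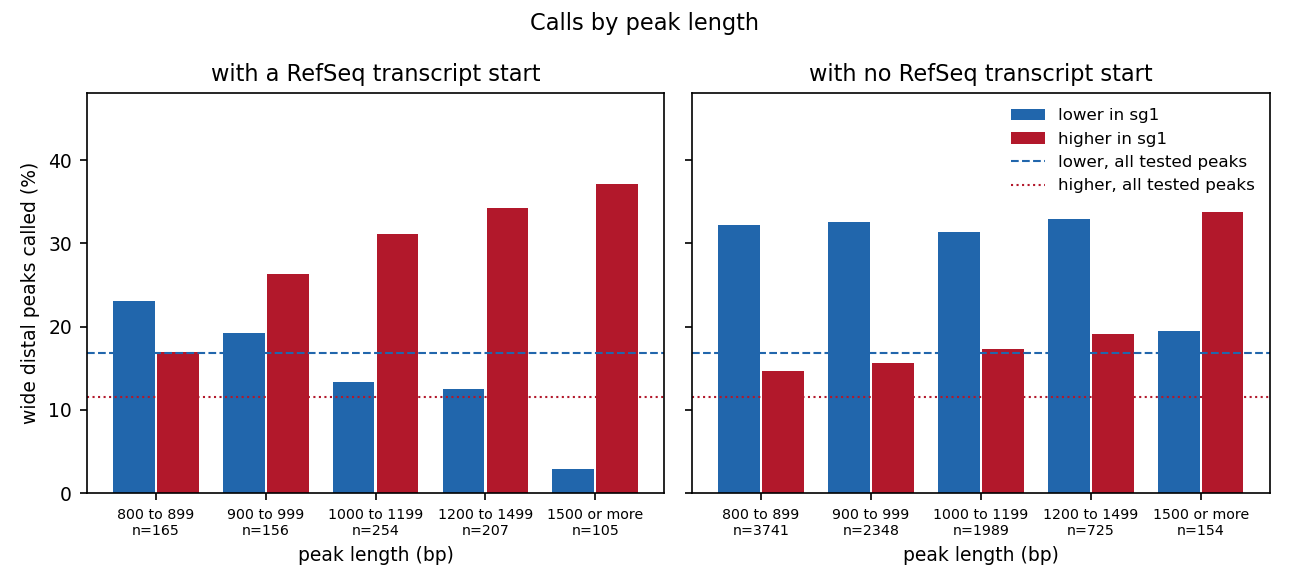
Percent of wide distal peaks called lower or higher in sg1 by peak length in bp, with a RefSeq transcript start (left) and with none (right). Dashed and dotted lines give the shares over all tested peaks, 16.8% lower and 11.5% higher, and n is the number of peaks. With a start, the lower share declines with length, to 2.86% in the longest class, and without a start it stays between 31.3% and 33.0% up to 1500 bp and is 19.5% above.

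The length and distance limits cut through a continuum. Of the 457 peaks less than 10 bp over the length limit 153 were lower and 64 higher, and of the 488 up to 10 bp under it 156 were lower and 73 higher. Peaks just over 10 kb from a gene end (280 up to 11 kb) had 29.6% lower and 21.1% higher, and those at 9 to 10 kb (276) had 26.8% lower and 17.0% higher. The members lay a median of 47349.5 bp from the nearest gene end. At 10 to 20 kb 26.6% were lower and 18.9% higher, and beyond 200 kb 34.5% of 1239 were lower and 13.6% higher. Inside protein-coding genes 28.7% of 4651 were lower and 17.6% higher, and between genes 31.9% of 5193 were lower and 17.1% higher.

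Ends of small structural RNA genes lay within 1 kb of some of these peaks. The snRNA genes encode the RNA of the spliceosome, and 14 of 26 peaks at them were lower and 1 higher, with a median log2 fold change of -0.23, against 30.4% lower and 17.3% higher of all members. These peaks were tall, with a median of 44.6 CPM, and 61.3% of all members from 40 to 80 CPM were lower, with a median of -0.27. At tRNA genes 14 of 38 were lower and 3 higher (median -0.17), at a median level of 28.7 CPM, where members from 20 to 40 CPM had 40.4% lower, and at snoRNA genes 7 of 14 were lower and 2 higher (median -0.28). At lncRNA genes 239 of 1015 were lower and 231 higher (median 0.01), and at transcribed pseudogenes 14 of 155 were lower and 56 higher (median 0.13). The tallest peak at such genes held SNORD3B-2, a snoRNA gene of ribosomal RNA processing on chromosome 17, with 5912 and 5400 counts in sg1 and 3577 and 2799 in control, or 135 ± 2.36 CPM in sg1 and 178 ± 6.13 CPM in control (log2 fold change -0.40, SE 0.05). Many of these genes have near-identical copies, so their counts are uncertain.

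Hairpins of 22 microRNA genes lay in wide distal peaks, of which 4 were lower and 4 higher, near the shares of all tested peaks (16.8% lower and 11.5% higher) and with fewer lower than among all members (30.4%). A selection of the RefSeq mature sequences at the called peaks, in GRCh38.p14, is printed to show that these 6 have different seeds, with 1 arm for each hairpin and 1 of the MIR3180 copies. Capitals mark the seed, bases 2 to 8. The first 4 names are from lower peaks and the last 2 from higher ones. They lie at chr5:154829466-154829486 (plus strand), chr13:110340968-110340989 (plus), chr11:128522430-128522448 (plus), chr6:2854079-2854097 (minus), chr16:16309936-16309957 (plus) and chr17:64780796-64780814 (plus).
hsa-miR-378h: aCUGGACUuggugucagaugg
hsa-miR-8073: aCCUGGCAgcagggagcgucgu
hsa-miR-6090: gGGGAGCGaggggcggggc
hsa-miR-4645-5p: aCCAGGCAagaaauauugu
hsa-miR-3180-3p: uGGGGCGGagcuuccggaggcc
hsa-miR-6080: uCUAGUGCgggcguucccg

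The peak of MIR6090 lies inside ETS1 and was at 64.7 ± 0.380 CPM in sg1 and 89.6 ± 1.43 CPM in control (log2 fold change -0.47, SE 0.06). The peak of MIR378H was at 4.55 ± 0.695 CPM in sg1 and 9.09 ± 1.99 CPM in control (log2 fold change -0.98, SE 0.17). At both the groups did not overlap, as at 2989 of the 2995 lower calls of members. The higher peaks held MIR3180-1, MIR3180-2 and MIR3180-3, copies on chromosome 16 with log2 fold changes of 0.29, 0.32 and 0.31, and MIR6080, with 0.45. The MIR3180 copies yield the same mature sequence, so counts between them are uncertain. No RNA was measured in these samples.

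Chromosomes differed in their medians. On chromosome X, 86 of 195 wide distal peaks were lower and 5 higher, with a median log2 fold change of -0.25. On chromosome 2, 308 of 767 were lower and 71 higher (median -0.18). On chromosome 7, 84 of 534 were lower and 195 higher (median 0.13), which scaling on gene-end peaks turned to -0.03, with 145 lower and 110 higher. All tested peaks of these chromosomes moved likewise, with medians of -0.27 on X, -0.12 on 2 and 0.21 on 7. Copy number was not measured, and its part was not tested. On 22 of the 23 chromosomes compared the median of the wide distal peaks lay below that of all tested peaks, and X was the exception.

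**Figure D4:**
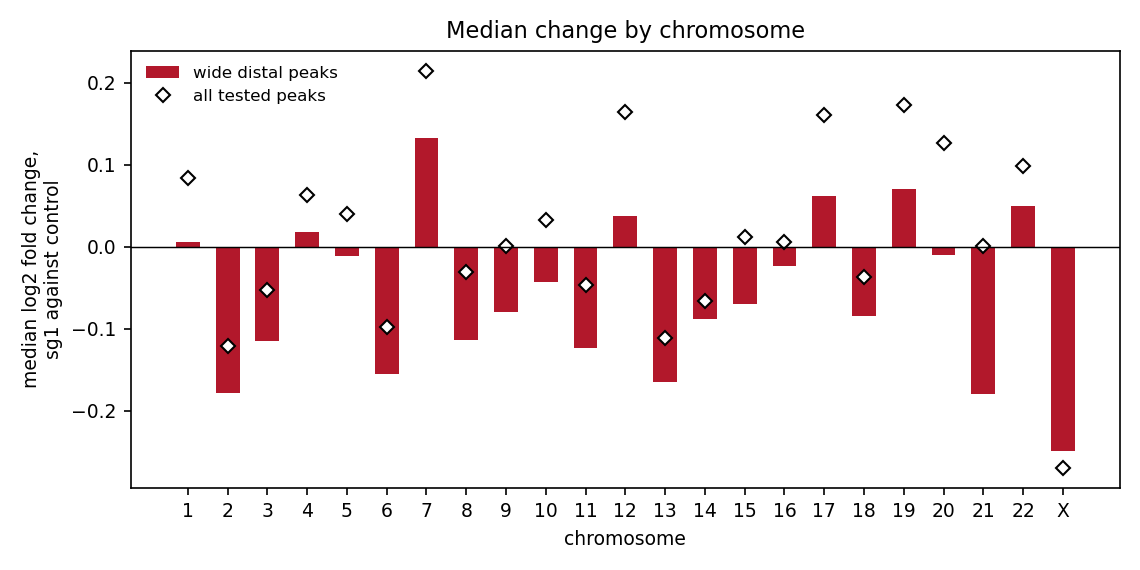
Median log2 fold change, sg1 against control, of wide distal peaks (bars) and of all tested peaks (diamonds) on each chromosome. Bars range from -0.25 on X to 0.13 on chromosome 7, and all but that of X end below the diamond of their chromosome.

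The direction of neighbouring members was compared along the genome. Members no more than 50 kb apart were joined into 6808 runs, of which 4993 were single peaks and 277 had 4 or more members. Of these 277, 121 held lower calls and no higher ones, 38 held higher calls and no lower ones, 107 held both and 11 held none. In 9 runs every member was lower. At MSN, which encodes moesin, a linker of membrane and actin, the 4 peaks on chromosome X summed to 43.4 and 40.9 CPM in sg1 and 93.2 and 87.9 CPM in control, with log2 fold changes from -1.68 to -0.56. At FAM135B on chromosome 8 the 4 peaks summed to 31.6 and 30.9 CPM in sg1 and 57.9 and 63.1 CPM in control. At LPIN1, the gene of a phosphatidate phosphatase, they summed to 81.3 and 78.5 CPM in sg1 and 110 and 110 CPM in control. The other 6 runs lay at TMEM132D, PDE8A and SLC28A1, METRNL, FHOD3, BACH2 and MAP3K7, and LOC102723553, with median log2 fold changes from -0.62 to -0.37. With library size alone as the scaling, 1 or 2 of the 4 peaks lost their call at LPIN1, FHOD3, BACH2 and PDE8A. The single run with every member higher lay at MYO18A, an unconventional myosin gene on chromosome 17, where 4 peaks within 48.1 kb summed to 61.8 and 58.6 CPM in sg1 and 40.4 and 37.6 CPM in control, with log2 fold changes from 0.47 to 0.87. It kept all 4 calls with every scaling. Of the 4 largest runs, 3 were mixed: 14 members at COL5A1 and RXRA on chromosome 9 (3 lower, 4 higher), 12 at PRKAG2 (2 lower, 2 higher) and 10 at CNIH3 and WDR26 (4 lower, 2 higher). This mix depended on the scaling. With scaling on gene-end peaks the PRKAG2 run had 4 lower and none higher. The run at COL5A1 and RXRA then had 6 lower and 2 higher, and that at CNIH3 and WDR26 5 lower and 1 higher.

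Of neighbouring members that were both called, 69.1% of 188 pairs at 2 to 10 kb had the same direction, 69.2% of 587 pairs at 10 to 50 kb, 67.5% of 723 pairs at 50 to 200 kb and 61.7% of 804 pairs farther apart. Of all calls of members 63.7% were lower and 36.3% higher. Neither share is the agreement that unrelated pairs would show, which was not computed. At 2 to 10 kb, 42.7% of members that followed a lower member were lower, against 28.7% of those that followed a higher one. Beyond 200 kb these shares were 31.7% and 25.4%. Agreement of pairs was not tested. Narrower distal peaks were grouped by the nearest member. Within 10 kb of a lower member 28.6% of 5233 were lower and 5.90% higher (median log2 fold change -0.23). Within 10 kb of a higher member 10.6% of 3025 were lower and 18.2% higher (median 0.21). With no member within 10 kb 17.8% of 96935 were lower and 9.35% higher (median -0.04). These peaks share the libraries and the chromosomal shifts given above, and the part of either was not tested. The tallest gene-end peak of each nearest gene was grouped in the same way, and a gene could be in more than 1 group. Its median log2 fold change was 0.10 for genes nearest to a lower member (1592 genes) and 0.24 for genes nearest to a higher member (1058 genes). For genes nearest to a member that was not called it was 0.15 (2498 genes).

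**Figure D5:**
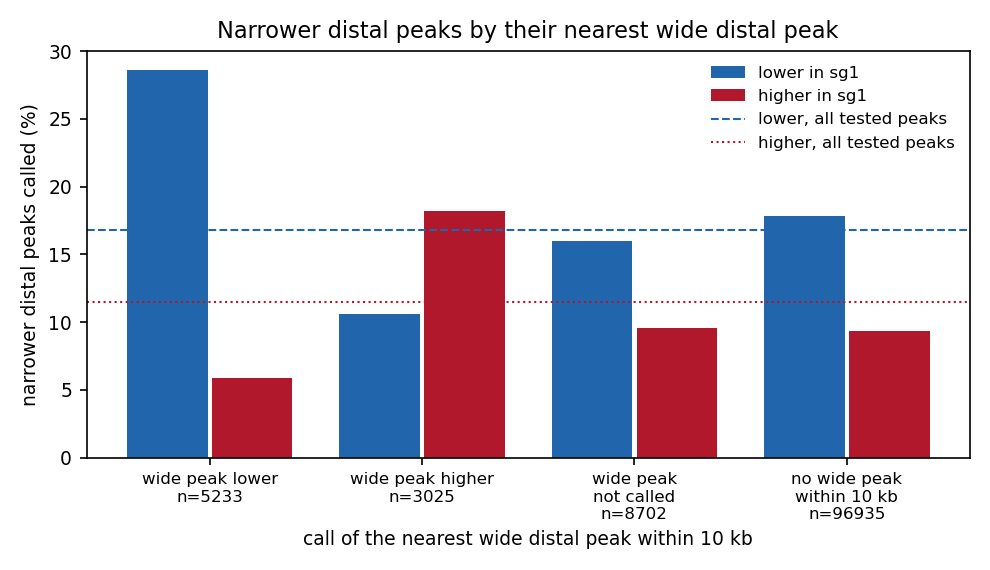
Percent of narrower distal peaks (under 800 bp) called lower or higher in sg1, by the call of the nearest wide distal peak within 10 kb. Lines give the shares over all tested peaks, 16.8% lower and 11.5% higher, and n is the number of peaks. The lower share is 28.6% beside lower wide peaks, against 10.6% beside higher ones and 17.8% where no wide peak is near.

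By nearest gene, the members spread over 4971 genes. ETS1, a transcription factor gene of the ETS family, had 11, of which 10 were lower, none was higher and all fold changes were below 0 (median -0.46). They lay from 37896 to 538842 bp from its ends and summed to 292 and 287 CPM in sg1 and 390 and 401 CPM in control. MICAL2, which encodes an enzyme that oxidises actin, had 8 of 9 lower and none higher, summing to 386 and 388 CPM in sg1 and 509 and 506 CPM in control. DIPK2B on chromosome X had 6 of 6 lower, with log2 fold changes from -1.06 to -0.71. In all 3 genes the summed sg1 levels lay under the summed control levels. PRPF18 had 8 of 10 lower, and ABTB2 and NAV2 had 7 each of 10 and of 13. TNS3, a gene of focal adhesions, had 6 of 13 higher and 2 lower (median 0.20), and PODXL, the gene of the surface protein podocalyxin, had 4 of 5 higher and none lower (median 0.51). With scaling on gene-end peaks TNS3 had 5 higher and 2 lower, and PODXL 3 higher and none lower. These genes were picked by their counts, so the counts describe and do not test them.

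Groups of genes, taken by the nearest gene of each member, were described by their counts, and no difference between lists was tested. Lists were written from general knowledge and are read beside 30.4% lower and 17.3% higher over all members. The NF-kB targets, inflammatory genes, had 13 of 25 members lower and 1 higher, with a median log2 fold change of -0.32. At NFKBIZ, which encodes an inflammatory IkB protein, the strongest had 349 and 252 counts in sg1 and 375 and 282 in control, or 7.14 ± 1.06 CPM in sg1 and 18.3 ± 0.115 CPM in control (log2 fold change -1.35, SE 0.12). The RUNX, ETS and TEAD genes had 25 of 47 lower and 4 higher (median -0.29), 11 of them the ETS1 peaks above. The strongest, 283610 bp from ETS1, had 221 and 184 counts in sg1 and 304 and 265 in control (log2 fold change -1.72, SE 0.14). Mesenchymal and matrix genes had 24 of 50 lower and 3 higher (median -0.28). The NFKBIZ and ETS1 peaks had the smallest p of their lists, so that their groups do not overlap in CPM is no finding.

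Genes of secreted signals and their receptors gave mixed counts. Growth factors and receptors had 17 of 47 members lower and 5 higher (median -0.19), and factors that act on macrophages 5 of 12 lower and 2 higher (median -0.17). The peak 18160 bp from CSF2, the gene of the macrophage growth factor GM-CSF, had 2228 and 1988 counts in sg1 and 2410 and 1796 in control. Its level was 50.4 ± 0.0444 CPM in sg1 and 117 ± 0.0137 CPM in control (log2 fold change -1.22, SE 0.06, adjusted p = 7.27e-18 by edgeR's quasi-likelihood test). LIF, a cytokine of the IL6 family, lay near a peak at 19.8 ± 1.29 CPM in sg1 and 36.4 ± 0.654 CPM in control (log2 fold change -0.88, SE 0.08). TGF-beta signalling genes had 15 of 50 lower and 14 higher, with a median of 0.01 that turned to -0.15 with scaling on gene-end peaks. The strongest of them, inside the receptor gene TGFBR2, was at 9.69 ± 0.0734 CPM in sg1 and 26.3 ± 2.09 CPM in control (log2 fold change -1.45, SE 0.10). These 3 peaks had the smallest p of their lists, so that their groups do not overlap in CPM is no finding.

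The other lists cover early response, tissue and cell cycle genes. The AP-1 and immediate early genes had 24 of 62 lower and 9 higher (median -0.10). The 22 members nearest MYC, described below, were among these 62, with 12 lower and 2 higher. YAP and TEAD targets had 18 of 51 lower and 4 higher (median -0.15), and the lung metastasis genes 12 of 32 lower and 6 higher (median -0.12). Luminal breast genes had 8 of 22 lower and none higher (median -0.12), epithelial genes 5 of 18 lower and 5 higher (median 0.08, or -0.08 with scaling on gene-end peaks), and cell cycle genes 2 of 14 lower and 4 higher (median -0.01). The peak with the smallest p in each list was lower: 50.2 ± 0.827 CPM in sg1 and 81.7 ± 4.17 CPM in control in NT5E (the ectoenzyme CD73), 23.5 ± 0.544 CPM in sg1 and 44.3 ± 5.99 CPM in control in ROBO1 (a SLIT receptor), 15.8 ± 1.42 CPM in sg1 and 38.7 ± 0.956 CPM in control near TBX3, 18.3 ± 1.18 CPM in sg1 and 36.9 ± 1.13 CPM in control near CLDN1 (a tight junction protein), and 22.3 ± 0.867 CPM in sg1 and 40.8 ± 0.959 CPM in control in CDK6. Genes of other cell types had few members: 6 at haematopoietic genes (none lower, 3 higher) and 5 at fibroblast and endothelial genes (1 lower, none higher). Of these, the RUNX3 peak had a log2 fold change of 0.40 (SE 0.08) and the CDH5 peak -0.23 (SE 0.08), and DESeq2 did not call the second (adjusted p = 0.110).

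MYC, the growth regulator on chromosome 8, was nearest to the most members, 22, of which 12 were lower and 2 higher (median -0.20). The member closest to it, 17226 bp away, had 243 and 173 counts in sg1 and 96 and 76 in control, or 4.94 ± 0.781 CPM in sg1 and 4.81 ± 0.205 CPM in control (log2 fold change 0.04, SE 0.19). The strongest loss, 524230 bp away, had 191 and 201 counts in sg1 and 375 and 229 in control (log2 fold change -1.83, SE 0.14). The groups overlapped at the first and did not at the second, which was picked by its p. A run of 12 members from 127760177 to 127993439 summed to 357 and 358 CPM in sg1 and 435 and 443 CPM in control, with 6 lower and 1 higher. SOX9 had 6 members, none lower and 2 higher (median -0.03). With scaling on gene-end peaks 3 of these 6 were lower and 1 higher (median -0.19). The closest, 25062 bp away, was at 24.8 ± 0.580 CPM in sg1 and 15.6 ± 2.05 CPM in control (log2 fold change 0.67, SE 0.10).

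CECR2 itself held 1 member, inside the gene on chromosome 22, with 412 and 445 counts in sg1 and 178 and 106 in control, or 10.3 ± 1.40 CPM in sg1 and 7.78 ± 1.23 CPM in control (log2 fold change 0.39, SE 0.15, adjusted p = 0.0430 by edgeR's quasi-likelihood test). DESeq2 did not call it (adjusted p = 0.179), and neither did edgeR with scaling on gene-end peaks, with all libraries thinned to one depth, without control replicate 2 or without sg1 replicate 2. This peak gives no check of the deletion. The ISWI list with CECR2 had 5 members, none lower and 1 higher.

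Some tall members stood out for what they hold. The tallest by far, a peak of 818 bp on chromosome 1, lies on the nuclear pseudogenes MTND1P23 and MTND2P28, which closely match mitochondrial DNA. It had 309011 and 276801 counts in sg1 and 84159 and 60921 in control (log2 fold change 0.80, SE 0.02). Counts at the start of chromosome 1, left out here, moved the same way, at 25.4% of a library in sg1 and 17.9% in control, and their part in this peak was not tested. A peak at the very start of chromosome 5, from 9969 to 11848, was at 176 ± 9.29 CPM in sg1 and 139 ± 9.16 CPM in control (log2 fold change 0.34, SE 0.05). The tall member near CIMIP1 on chromosome 20 was at 87.6 ± 0.123 CPM in sg1 and 120 ± 2.17 CPM in control (log2 fold change -0.45, SE 0.05). A peak of 818 bp on chromosome 9 near the pseudogene AQP7P1 had the third most cuts per kb and was at 58.2 ± 0.357 CPM in sg1 and 114 ± 2.21 CPM in control (log2 fold change -0.97, SE 0.06). The tall peaks near ITGA3 (0.12) and at LOC100132249 (-0.12) did not pass, with adjusted p of 0.0989 and 0.103 in edgeR's quasi-likelihood test. The members of at least 20 CPM closest to no change, in FNDC3B, at RNA28SN1, in ZMYND8 and in NUAK1, had log2 fold changes of 0.00. Their SE lay between 0.07 and 0.08, and shifts larger than the SE could also be missed at this depth. Among members of similar SE (0.08), the ETS1 peak 121861 bp from that gene changed by -0.205 and was not called. The RORA peak, at 0.23, was called. Adjusted p by edgeR's quasi-likelihood test was 0.0632 at the ETS1 peak and 0.0349 at the RORA peak.

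Markers of the line were open, with a tested gene-end peak for 6 of 6 MDA-MB-231 lineage genes at 7.01 to 79.7 CPM in sg1 and 4.37 to 85.6 CPM in control. Of epithelial markers 4 of 5 had a tested peak, from CDH1 at 0.278 CPM in sg1 and 0.618 CPM in control to KRT8 at 19.8 CPM in sg1 and 17.2 CPM in control. EPCAM was at 14.2 CPM in sg1 and 14.9 CPM in control, and GRHL2 was higher in sg1 (log2 fold change 0.63, adjusted p = 0.000652 by edgeR's quasi-likelihood test). The lineage markers EGFR (0.35) and KRT18 (0.69) were also called higher, and the blood markers CD3E (-0.26) and LAPTM5 (-0.20) lower. No other marker was called. Of blood markers 4 of 5 had one, from 0.470 to 43.8 CPM in sg1 and 0.862 to 50.4 CPM in control, with PTPRC lowest and LAPTM5 highest. Of endothelial and fibroblast markers 2 of 5 had one, KDR and PDGFRA. The part of other cells in the results was not tested.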

How the data were processed

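ATAC-seq libraries of LM2 cells with the CECR2 deletion (2) and with the non-targeting guide (2) were analysed. The deposited counts are whole numbers of Tn5 cut sites per peak, made by the authors with featureCounts 1.6.0 per the file headers. The submitters' processing notes name CASAVA, Trimmomatic 0.39, Bowtie2, MACS2 2.2.4, DESeq2 1.32 and deepTools 3.1.3, without roles. No label or header names a genome build. Of 20037 RefSeq GRCh38.p14 protein-coding genes, 73.3% had an end with a peak at most 1 kb away, against 30.8% and 31.1% after shifts of 100 kb either way, so GRCh38 positions were used. The 109 peaks that start under 250000 on chromosome 1 were left out of library sizes and tests.

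Counts of all other peaks were filtered by filterByExpr, scaled by TMM and tested with edgeR 4.0.16 (quasi-likelihood, R 4.3.3), with Benjamini-Hochberg adjustment over all 184717 tested peaks at an FDR of 0.05. SE is the log2 fold change over the square root of F. The fit was tested on simulated data. Alternatives were DESeq2 1.42.0, other scalings, no filter, thinning to one depth, leaving out each library, a replicate block, and other length and distance limits. Tables were joined in Python 3.11.15 with pandas 2.3.3. Precision is set by counting error and by 2 libraries a group.

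Members and gene lists were chosen with earlier results of these data known. Named peaks were, per direction, the 8 with the largest called fold change among separated peaks with at least 2 CPM in the higher group; the 6 tallest; the 4 longest; the 4 with most cuts per kb; the 4 of at least 20 CPM with the smallest change; the peak with the smallest p per list; the 4 largest runs and the runs called one way; and the peaks nearest MYC and SOX9. Promoters, microRNAs and genes named for their counts were chosen after their values were seen. Some peaks that these rules pick are not reported here.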

Additional observations from a re-analysis of the deposited data

How the results depend on the processing

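Lower calls (2995) stayed within 1.5 times of that count, and the median log2 fold change (-0.06) stayed below 0, under every scaling, test, filter and left-out library run. The median was -0.052 with DESeq2 size factors, -0.0091 with library size alone, -0.22 with scaling on gene-end peaks, -0.052 in DESeq2, -0.042 after thinning, and -0.064 to -0.041 without each library in turn. Higher calls (1706) were 895 with scaling on gene-end peaks, 1001 in DESeq2 and 1092 to 1624 without each library. Without each library, lower calls were 2186 to 2945, falls of more than 2-fold 345 to 366 (347 with all libraries) and rises 210 to 224 (193). Falls of more than 2-fold were 562 with scaling on gene-end peaks. Other limits change the number of peaks: at 600 bp or more 6787 were lower, 3470 higher, 1335 and 643 past 2-fold, with a median of -0.076; at 1000 bp or more 955, 724, 83 and 41, with -0.011; over 50 kb 1531, 757, 176 and 103, with -0.077. Over 5 kb the median was -0.046, and without peaks that hold a RefSeq transcript start, a choice made after seeing the data, -0.080. With a replicate block 3001 were lower and 1713 higher. Over the tested peaks, the log2 difference between sg1 replicates 1 and 2 had a correlation of 0.00013 with that between control replicates 1 and 2. Libraries of the same number thus showed no shared deviation over these peaks as a whole. Most of these peaks were low, with a median of 1.79 CPM. The correlation was not taken over the wide distal peaks alone, with a median of 14.1 CPM, so a shared deviation in them was not tested. The difference in share of counts, -0.918 percentage points, ran from -2.07 with the start of chromosome 1 kept to -0.320 at 1000 bp or more. None of the 48 named peaks had a called direction reversed, and the block changed none of their calls. Among peaks not called, the sign turned with scaling on gene-end peaks near ITGA3 (-0.04), at RNA28SN1, ZMYND8 and NUAK1 (-0.16 each) and at the peak closest to MYC (-0.11), and it turned at the FNDC3B peak with other scalings. With 2 libraries a group, 1 guide and unequal depth, the cause of these differences between settings was not tested.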
